A study of Homo sapiens with 12 samples.

Results

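PIM1, PIM2 and PIM3, which encode the 3 PIM serine/threonine kinases, and MYC, which encodes the transcription factor MYC, were followed across parental and oxamate-resistant MIAPaCa2 cells. They are 4 of the 26475 gene symbols in the expression table, and all 4 passed the filter on low counts that left 14582 genes for testing. PIM1 was chosen by its low level in the resistant line, where it was among the genes most lowered. The others were taken by name as its family members and functional partner, but with earlier results of these data known, so their p-values are not those of genes picked blind. The contrast between the lines under vehicle is therefore given for all 4 genes as a description with no test, and the contrast under oxamate is given so for PIM1. The oxamate responses, and the difference between them, share their libraries with the contrasts between the lines, on which the choice of PIM1 rests.

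MIAPaCa2 is an established line from a human pancreatic ductal adenocarcinoma (PDAC), and oxamate is a pyruvate analog that competes for lactate dehydrogenase A (LDHA). The oxamate-resistant cells were derived from the parental cells by 10 mM sodium oxamate for 4 weeks and are polyclonal populations of 1 parental line. RNA-seq libraries were made from 4 groups of 3 replicates: vehicle-treated parental cells, oxamate-treated parental cells, vehicle-treated resistant cells and oxamate-treated resistant cells. The labels call the vehicle groups untreated and oxamate an LDHA inhibitor, and the length of the oxamate treatment before RNA-seq is not given in the sources used here. Nothing says that the replicates were separate cultures, so p-values measure only the spread between these samples, which may be technical.

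PIM kinases need no phosphorylation to be active, so their output follows the amount of protein, which is set largely by transcription, by short-lived mRNAs and by protein turnover. Cytokine receptors that signal through JAK kinases and STAT factors are the best known inducers of PIM1 and PIM2. The kinases phosphorylate regulators of survival, the cell cycle and translation, such as BAD, p27 and the mTORC1 inhibitor PRAS40, and they cooperate with MYC in transformation. MYC binds DNA with its partner MAX, drives genes of ribosome production, nucleotide synthesis and glycolysis, and has a short-lived mRNA and protein. Raised PIM3 and raised MYC are both known from PDAC.

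In the GRCh38 annotation of GENCODE release 29, PIM1 lies on the forward strand at chr6:37170203-37175426, with 6 exons in its reference transcript of 2650 bases. PIM2 lies on the reverse strand at chrX:48913182-48919024 and has 6 exons in 2075 bases, and PIM3 lies on the forward strand at chr22:49960513-49964080 and has 6 exons in 2369 bases. PIM3 overlaps the microRNA gene MIR6821 on the same strand, and reads of that stretch cannot be told apart.

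Because the 3 PIM genes moved together in most comparisons, their promoters are shown as far as the bases lie before the start of transcription. The sequences are those of RefSeq on GRCh38.p14, written 5′ to 3′ on the strand of the gene and ending at the base before the RefSeq start. Capitals mark GC boxes with the letters GGGCGG, octamers with the letters ATTTGCAT and the CCAAT box, each on either strand.
PIM1, chr6:37169902-37170151, forward strand: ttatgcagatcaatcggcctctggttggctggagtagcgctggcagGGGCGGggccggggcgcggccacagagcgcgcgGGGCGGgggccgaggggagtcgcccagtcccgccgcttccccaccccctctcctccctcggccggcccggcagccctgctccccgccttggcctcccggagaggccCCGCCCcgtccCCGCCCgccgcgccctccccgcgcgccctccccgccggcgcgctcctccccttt
PIM2, chrX:48919025-48919274, reverse strand: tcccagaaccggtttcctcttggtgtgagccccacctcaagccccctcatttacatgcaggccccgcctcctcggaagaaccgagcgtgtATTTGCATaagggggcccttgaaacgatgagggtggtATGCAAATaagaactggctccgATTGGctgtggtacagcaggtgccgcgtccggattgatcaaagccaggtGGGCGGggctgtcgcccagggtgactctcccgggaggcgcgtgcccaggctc

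The window searched for motifs ran from 250 bases before the start to 50 bases after it, which is the window of the 35116 RefSeq promoters used for comparison. PIM3 has its window at chr22:49960522-49960821, which GENCODE places inside the transcript, and its letters are not shown. The PIM1 window had a GC content of 79.7% and 39 CpG dinucleotides, and that of PIM3 had 81.3% and 56. The PIM2 window stood apart with 62.3% and 23 CpG, close to the median promoter at 58.7% and 14. A lower GC content than that of PIM1 was found in 97.4% of promoters, than that of PIM3 in 98.4%, and than that of PIM2 in 59.5%.

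GC boxes, the letters bound by the SP family, occurred 4 times in the PIM1 window, 5 times in that of PIM3 and once in that of PIM2, and 45.0% of all promoters held at least 1. PIM2 alone of the 3 held octamers, 2 of them on opposite strands, a motif that 1.77% of promoters hold. It also held 2 CCAAT boxes, of which the second lies past the start and is outside the stretch shown (34.6% of promoters hold 1 or more). No window had the E-box CACGTG bound by MYC and MAX (7.26% of promoters), the STAT letters TTCNNNGAA (7.66%), the hypoxia core ACGTG (21.4%), TGACGTCA (1.85%) or TATAAA (11.5%). These counts say only which letters lie in these windows.

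MYC, for which no sequence is shown, lies on the forward strand at chr8:127735434-127741434, with 3 exons in a reference transcript of 2366 bases. The libraries summed to 46698729 to 114222169 expected counts each, and every parental library was deeper than every resistant one. The 4 genes had between 3549 and 38395 expected counts in a library, far above the floor of 3 counts taken as the limit of measurement, so counting error was small for them. The floor covers counting error only, whereas the SDs and standard errors given below also hold the spread between replicate libraries. The keratins of simple epithelia were present, and like the kinases they were lower in the resistant line. In the order parental vehicle, parental oxamate, resistant vehicle and resistant oxamate, KRT8 had 1460, 1550, 676 and 756 CPM (counts scaled to a common library size by TMM), KRT18 1250, 1330, 773 and 747 CPM and KRT19 647, 693, 325 and 334 CPM. VIM, a mesenchymal filament that MIAPaCa2 is known to carry, followed with 9440, 9900, 6280 and 6000 CPM. The part of this shift in the results for PIM and MYC was not tested. EPCAM, another epithelial marker, was at or below 3 counts in every library, as were the leukocyte genes PTPRC and CD3E and the fibroblast genes DCN and LUM. The endothelial markers were low but above the floor in some or all libraries, with PECAM1 at most 0.159 CPM and CDH5 at 0.386 to 0.957 CPM. LDHA, the target of the drug, was measured at 1080, 1060 and 1090 CPM in vehicle-treated and 1700, 1690 and 1550 CPM in oxamate-treated parental cells, and at 966, 970 and 944 CPM and 1220, 1220 and 1200 CPM in the matching resistant groups. Since oxamate acts on the LDHA protein, these mRNA levels check no label.

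PIM1 stood highest in oxamate-treated parental cells and lowest in oxamate-treated resistant cells. In vehicle-treated parental cells it was measured at 260.5, 257.2 and 256.1 CPM, and in oxamate-treated parental cells at 348.3, 350.4 and 343.4 CPM. In resistant cells it was measured at 95.85, 94.46 and 93.44 CPM after vehicle and at 70.73, 68.7 and 69.47 CPM after oxamate. The 4 groups did not overlap anywhere, and oxamate moved PIM1 up in the parental line and down in the resistant line. Fewer cells that express a gene and less RNA of it per cell cannot be told apart in such bulk libraries.

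PIM2, the family member best known from lymphoid cells, kept the same order of groups. Its values were 124.6, 120.8 and 120.5 CPM in vehicle-treated and 165, 161.9 and 160 CPM in oxamate-treated parental cells. The resistant cells had 73.74, 77.08 and 74.97 CPM after vehicle and 71.12, 69.71 and 71.77 CPM after oxamate. The 2 resistant groups lay close, but their libraries did not overlap.

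PIM3, the member expressed in many epithelial tissues, was the most abundant of the kinases. It was measured at 362, 352.9 and 334 CPM in vehicle-treated and 469.6, 460.4 and 450.8 CPM in oxamate-treated parental cells. Resistant cells had 195.7, 205.2 and 202.5 CPM after vehicle and 164.6, 173.1 and 166 CPM after oxamate. Its order of groups was that of PIM1 and PIM2, with no overlap between neighbours.

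Over the 4 groups MYC spanned a narrower range than any of the kinases, although oxamate moved it further than PIM2 in resistant cells. Vehicle-treated parental cells had 265.5, 261.7 and 261 CPM and oxamate-treated parental cells 240.9, 241.2 and 240.6 CPM. Vehicle-treated resistant cells had 237.4, 241.6 and 233.6 CPM and oxamate-treated resistant cells 203.4, 202.5 and 205.9 CPM. Oxamate-treated parental and vehicle-treated resistant cells overlapped, and these neighbours in the order of levels did not differ beyond their spread, while the first was the top group and the last the bottom group.

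**Figure D1:**
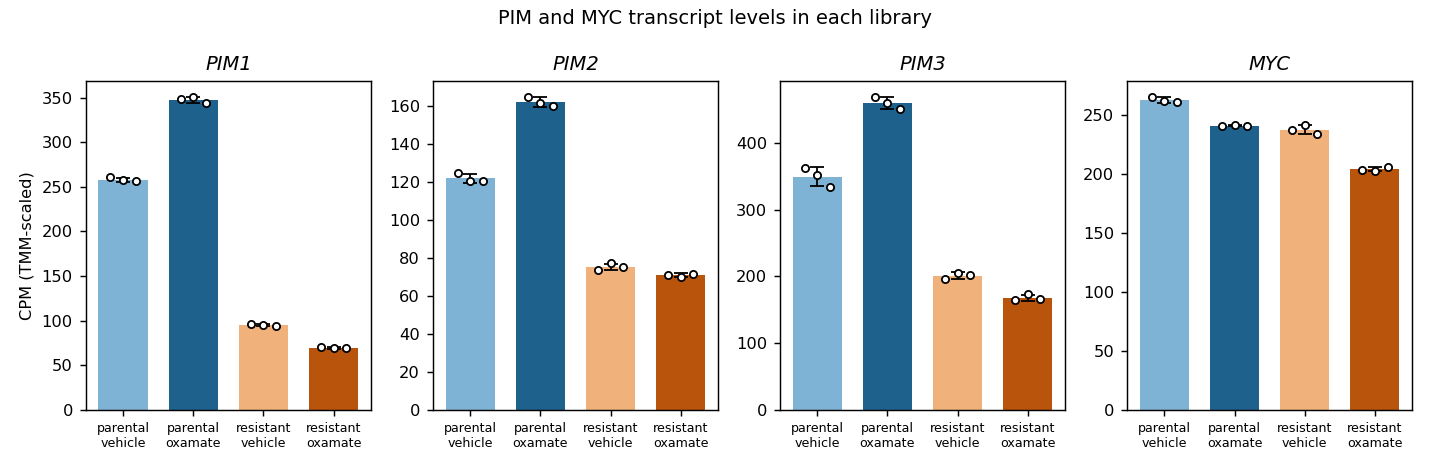
PIM1, PIM2, PIM3 and MYC levels in CPM after TMM scaling, with a bar for the mean of each group, an error bar for the SD and a point for each of the 3 libraries. The 3 kinases rise with oxamate in parental cells and are lower in both resistant groups, and MYC spans a narrower range, from 202.5 to 265.5 CPM.

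Measured as CPM per kb of the reference transcript, which allows genes to be compared, PIM3 led the family in every group. In vehicle-treated parental cells the mean levels were 147.6 for PIM3, 97.35 for PIM1 and 58.79 for PIM2, and MYC stood between PIM3 and PIM1 at 111.0 CPM per kb. In oxamate-treated resistant cells they were 70.86 for PIM3, 26.28 for PIM1 and 34.15 for PIM2, with MYC above them at 86.18 CPM per kb. PIM1 stood above PIM2 in the parental line, level with it in vehicle-treated and below it in oxamate-treated resistant cells: the ratio of PIM1 to PIM2 per kb was 1.66 ± 0.0165 and 1.68 ± 0.0213 (SD, n = 3) in the parental groups, and 0.984 ± 0.0300 after vehicle and 0.769 ± 0.0106 after oxamate in the resistant groups. The ratio of MYC to PIM1 ran from 0.777 ± 0.00695 in oxamate-treated parental cells to 3.28 ± 0.0525 in oxamate-treated resistant cells (SD, n = 3). All 4 genes were well expressed, with 93.8% of tested genes below PIM1 in mean CPM, 87.3% below PIM2, 96.4% below PIM3 and 95.2% below MYC.

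The 3 kinases together summed to 303.7 ± 7.75 CPM per kb in vehicle-treated parental cells and 403.6 ± 6.16 after oxamate (SD, n = 3). In resistant cells the sum was 156.9 ± 2.56 after vehicle and 131.3 ± 1.14 after oxamate (SD, n = 3). PIM1 made up 32.1% and 32.5% of the sum in the parental groups, against 22.8% after vehicle and 20.0% after oxamate in resistant cells. PIM2 went the other way, from 19.4% in both parental groups to 23.1% and 26.0%, and PIM3 from 48.6% and 48.1% to 54.1% and 54.0%. The parental shares were the same with and without oxamate within 1 SD, whereas in the resistant line the PIM1 and PIM2 shares of the vehicle and the oxamate libraries did not overlap.

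**Figure D2:**
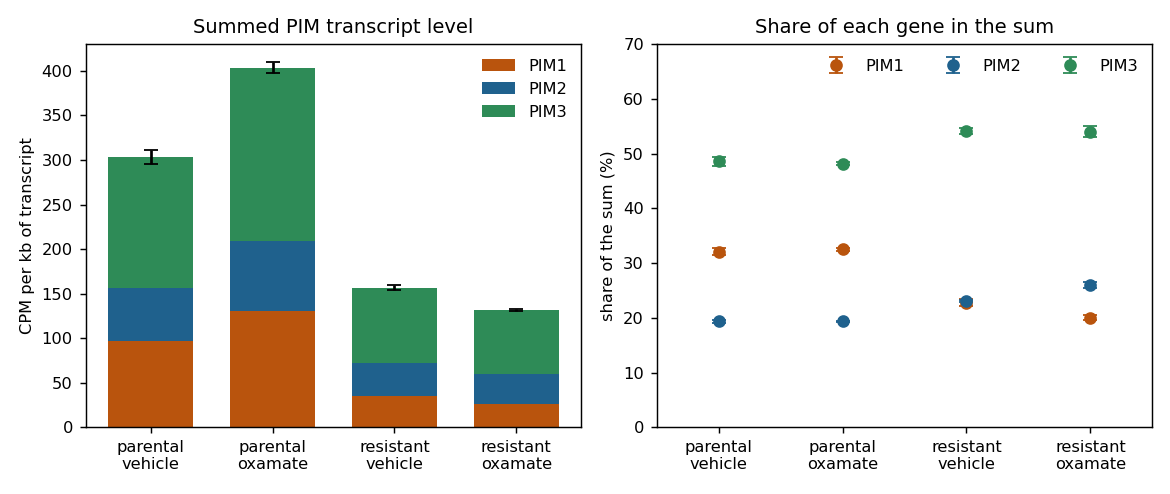
On the left, the summed PIM transcript level in CPM per kb of transcript in each group, stacked by gene, with the SD of the sum over 3 libraries; on the right, the mean share of each gene in that sum in percent with its SD. The sum runs from 131.3 in oxamate-treated resistant to 403.6 in oxamate-treated parental cells, and the PIM1 share is above the PIM2 share in the parental groups, level with it in vehicle-treated resistant cells and below it in oxamate-treated resistant cells.

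The first comparison asked what oxamate did to the parental cells. All 3 kinases rose and MYC fell, and for each gene the oxamate-treated and the vehicle-treated libraries did not overlap. PIM1 rose by 1.35-fold (log2 fold change 0.43, standard error 0.022, edgeR adjusted p = 3.63e-10), an adjusted p being that of the quasi-likelihood test after Benjamini-Hochberg correction over the 14582 genes, here and below. PIM2 rose by 1.33-fold (0.41, standard error 0.025, edgeR adjusted p = 2.13e-09) and PIM3 by 1.32-fold (0.40, standard error 0.0316, edgeR adjusted p = 3.84e-08). The 3 increases were thus of like size. MYC was 1.09-fold lower (log2 fold change -0.13, standard error 0.0218, edgeR adjusted p = 0.000134). Calls were frequent in this comparison, where 28.3% of genes were called higher and 30.4% lower at an adjusted p under 0.05, so these calls are to be read gene by gene. None of the 4 reached the threshold of the study, a change over 1.5-fold at a p under 0.05 without adjustment, which 9.88% of genes did.

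The second comparison asked what oxamate did to cells that had already been selected in it. Here all 4 genes were lower after oxamate. PIM1 fell 1.36-fold (log2 fold change -0.44, standard error 0.0239, edgeR adjusted p = 9.28e-09), PIM3 1.2-fold (-0.26, standard error 0.0326, edgeR adjusted p = 6.84e-05) and MYC 1.16-fold (-0.22, standard error 0.022, edgeR adjusted p = 7.19e-06). PIM2 was 1.06-fold lower (-0.09, standard error 0.0268, edgeR adjusted p = 0.0317), and this call was not firm: over 13 alternatives its adjusted p ran from 0.0296 to 0.133, and 5 of them lost the call, among them library size alone in place of TMM (adjusted p = 0.116). The call was also lost without the second vehicle-treated or without any one of the 3 oxamate-treated resistant libraries. Fewer genes responded in this line, with 9.01% called higher and 12.5% lower, and 2.5% past the threshold of the study, which none of the 4 genes reached. Among all genes tested, PIM1 ranked 146 from the lowest log2 fold change, PIM3 491, MYC 702 and PIM2 3319.

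The third comparison set the difference between both responses as a contrast of its own. The response of PIM1 in resistant cells was lower than that in parental cells by a log2 difference of -0.87 (standard error 0.0325, edgeR adjusted p = 5.73e-11). The same value is the difference between both line contrasts, given below without a test for PIM1, so this p-value is not free of the choice of PIM1. For PIM3 the difference was -0.66 (standard error 0.0454, edgeR adjusted p = 2.9e-08) and for PIM2 -0.50 (standard error 0.0367, edgeR adjusted p = 5.29e-08). The 3 kinases were thus higher in 1 line and lower in the other, with the fall of PIM2 not firm, and the difference itself was larger than the spread between replicates for each. For MYC, which was lower after oxamate in both lines, the difference was -0.09 (standard error 0.031, edgeR adjusted p = 0.0205). Its adjusted p ran from 0.0122 to 0.787 over 18 alternatives, of which 3 lost the call: no filter on low counts (0.051), the fit without the second vehicle-treated resistant library (0.0548) and library size alone, where the sign turned as well (0.01, adjusted p = 0.787). Over all genes, 22.7% had a higher and 21.4% a lower response in the resistant line, and 8.48% passed the threshold of the study, as PIM1 and PIM3 did with differences of 1.83-fold and 1.58-fold and as PIM2 did not with 1.41-fold.

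Genes higher after oxamate in parental and lower in resistant cells, both at an adjusted p under 0.05, numbered 457 of those tested (3.13%), and the 3 kinases were among them. The opposite pattern, lower in parental and higher in resistant cells, was held by 353 genes (2.42%). MYC belonged to 819 genes (5.62%) that were lower in both lines, and 580 (3.98%) were higher in both. PIM2 leaves its class under the alternatives named above.

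**Figure D3:**
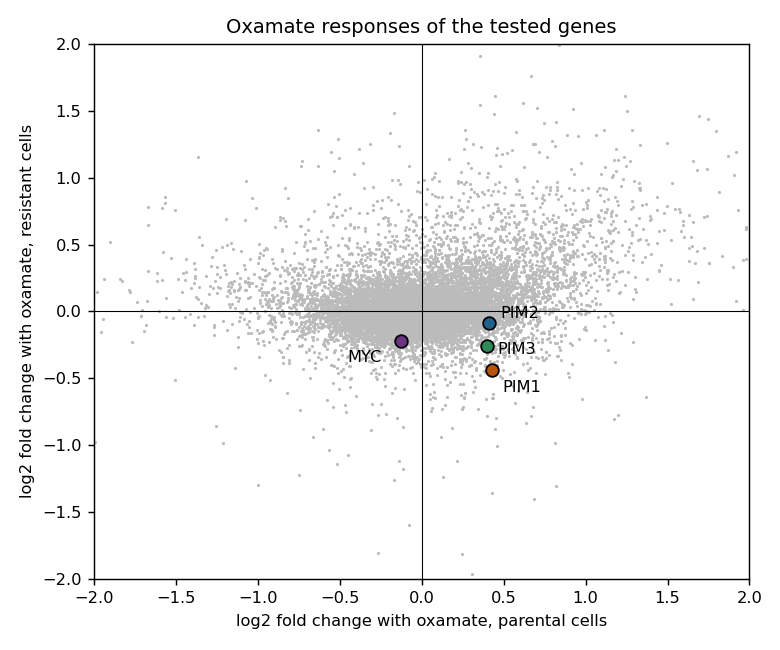
Log2 fold change with oxamate in parental cells (x axis) against that in resistant cells (y axis) for 14533 tested genes in grey, with 49 genes beyond the axes not drawn, and the 4 genes as coloured points. PIM1, PIM2 and PIM3 lie to the right of 0 and below it, in order of depth PIM1, PIM3 and PIM2, and MYC lies below 0 on both axes.

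The fourth comparison set resistant against parental cells under vehicle. Its values are a description, since PIM1 was chosen by its low level in the resistant line. PIM1 was 2.73-fold lower in resistant cells (log2 fold change -1.45, standard error 0.023), PIM3 1.74-fold lower (-0.80, standard error 0.0321) and PIM2 1.62-fold lower (-0.70, standard error 0.0259). MYC was 1.11-fold lower (-0.15, standard error 0.0218). Ranked from the lowest of all tested genes, PIM1 stood at 77, PIM3 at 420, PIM2 at 588 and MYC at 5126. In this comparison 38.4% of genes were called higher and 37.3% lower, and 23.4% passed the threshold of the study.

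Under oxamate the distance between the lines grew for all 3 kinases. PIM1, again without a test, was 4.99-fold lower in resistant cells (log2 fold change -2.32, standard error 0.0239) and ranked 31 from the lowest. PIM3 was 2.74-fold lower (-1.46, standard error 0.0327, edgeR adjusted p = 2.02e-15) and PIM2 2.29-fold lower (-1.20, standard error 0.0262, edgeR adjusted p = 1.53e-15), ranking 159 and 300. MYC was 1.18-fold lower (-0.24, standard error 0.022, edgeR adjusted p = 3.9e-08). Of all genes, 40.6% were called higher and 39.7% lower here, and 34.3% passed the threshold of the study. The group means of the summed PIM level were 1.94-fold lower in the resistant line under vehicle and 3.07-fold lower under oxamate.

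The direction of MYC between the lines depended on how libraries were scaled. With library size alone the all-gene median moved on the log2 scale from 0.03 to 0.24 under vehicle and from 0.01 to 0.34 under oxamate, and MYC was then 0.07 and 0.08 higher in resistant cells on the log2 scale. Relative to the median of all genes, MYC was lower by either scaling, at -0.171 under vehicle and -0.255 under oxamate. The 3 kinases were lower in resistant cells by either scaling, with log2 fold changes of -1.23, -0.48 and -0.58 for PIM1, PIM2 and PIM3 under vehicle with library size alone. In the oxamate responses the median of all genes moved by less than 0.1, to -0.07 in parental and to 0.03 in resistant cells, and the signs of all 4 genes were the same by both scalings. For the difference between responses the median moved from -0.01 to 0.10.

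**Figure D4:**
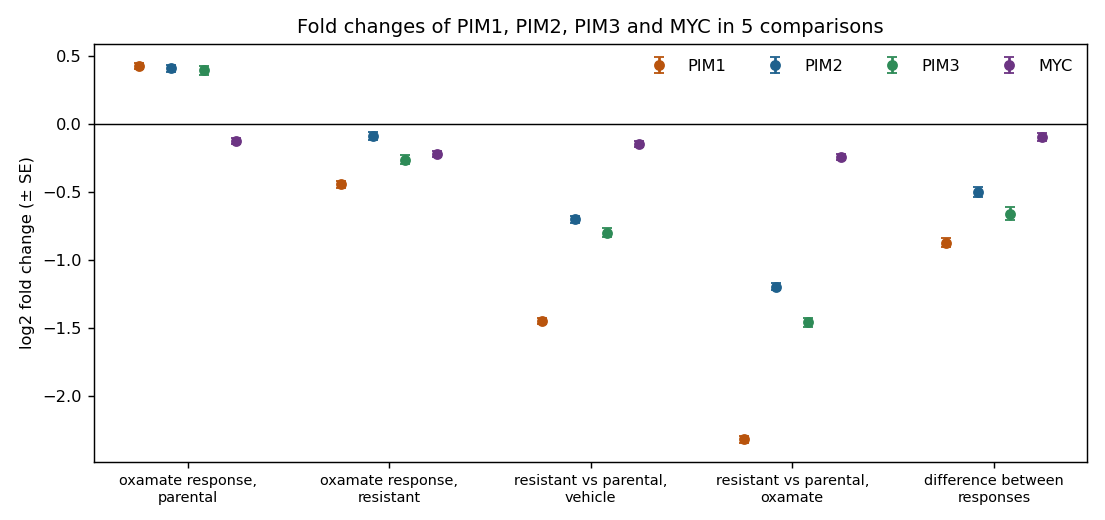
Log2 fold changes of the 4 genes in the 5 comparisons, with bars for the standard error of the edgeR fit. The kinases lie between 0.40 and 0.43 in the parental response and below 0 in the other 4 comparisons, and MYC lies between -0.24 and -0.09 throughout.

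RNA composition also moved with the groups. MALAT1, a noncoding RNA kept in the nucleus, was measured at 183, 198 and 199 CPM in vehicle-treated parental, 289, 281 and 596 CPM in oxamate-treated parental, 273, 244 and 597 CPM in vehicle-treated resistant and 577, 609 and 742 CPM in oxamate-treated resistant libraries. NEAT1, the RNA of paraspeckles, followed it at 134, 155 and 128, then 262, 257 and 575, then 303, 284 and 504, and then 645, 458 and 648 CPM. The third library thus stood apart in 2 groups, in which the highest MALAT1 value was 2.12 and 2.45 times the lowest. In those same 2 groups the highest value of each of the 4 genes was at most 1.04 and 1.05 times its lowest. All 4 tested RNAs of the nuclear-retained list were called higher after oxamate in parental cells (median log2 fold change 1.26), beside 28.3% of all genes. In resistant cells 1 of 4, MIAT, was called higher (0.77), beside 9.01%. In resistant against parental cells 3 of 4 were called higher under vehicle (1.16, beside 38.4%) and under oxamate (0.70, beside 40.6%). None was called for the difference between responses (-0.47), beside 22.7% higher and 21.4% lower. Their part in the results for PIM and MYC was not tested.

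The genes whose pattern over the 12 libraries was most like each of the 4 were found by the root mean square difference of log2 CPM after each gene was centred on its own mean. NR1D1, a nuclear receptor of the circadian clock, lay nearest to PIM1 at 0.0351, with group means of 150, 200, 52.9 and 40.4 CPM in the order parental vehicle, parental oxamate, resistant vehicle and resistant oxamate. INSIG1, which restrains the sterol regulator SREBP, followed at 0.0707, then ANGPTL4, an inhibitor of lipoprotein lipase, at 0.11, SNAI1, a repressor of epithelial genes, at 0.114 and the HSP70 cochaperone DNAJB1 at 0.129. Nearest to PIM2 were RAB11FIP5, an effector of RAB11 in recycling endosomes, at 0.0375, QPCTL, a glutaminyl cyclase of the Golgi, at 0.0393, the small heat shock protein gene HSPB1 at 0.0417, and ST6GALNAC4, a sialyltransferase, and PHF13, a reader of histone methylation, both at 0.0481. HSPB1 had 1560, 2060, 1020 and 930 CPM in the same order of groups.

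Nearest to PIM3 were JMJD6, a JmjC-domain hydroxylase, at 0.0652, the zinc finger factor gene KLF16 at 0.0706, BAK1, which permeabilises mitochondria in apoptosis, at 0.0712, TMEM55B, a lysosomal membrane protein, at 0.0727, and DBP, a circadian transcription factor, at 0.0776. Nearest to MYC were ARHGEF2 at 0.0235, HSPA9, the mitochondrial HSP70, at 0.0249, SBF2 at 0.029, SLC7A6OS at 0.0299 and SEC14L1 at 0.0317. PIM2 and PIM3 lay 0.114 apart, which made PIM2 the 34th nearest gene to PIM3, while PIM1 lay 0.384 from PIM3 and 0.484 from PIM2. MYC lay 0.868 from PIM1, farther than from PIM3 at 0.502 and from PIM2 at 0.423. These distances are a description, and the libraries they run over fall into the 4 groups.

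The pathway around the 4 genes was read from lists written from general knowledge with earlier results of these data known, and the 4 genes are in none of them. Their counts are set beside the share of all tested genes called in the same direction, which for higher and lower calls was 28.3% and 30.4% in the parental response, 9.01% and 12.5% in the resistant response, 38.4% and 37.3% between the lines under vehicle, 40.6% and 39.7% under oxamate, and 22.7% and 21.4% for the difference between responses. Of the JAK-STAT list, the route by which cytokines induce PIM1, 35 of 37 genes were tested. In parental cells 10 were higher and 14 lower after oxamate (28.6% and 40.0% of the list, median log2 fold change -0.05), and in resistant cells 3 were higher and 7 lower (8.57% and 20.0%, -0.03). The higher calls were near the share of all genes. Between the lines 11 were higher and 14 lower in resistant cells under vehicle (31.4% and 40.0%, -0.04) and 14 and 15 under oxamate (40.0% and 42.9%, -0.01). Library size alone turned these counts into 22 higher and 8 lower and 23 higher and 7 lower. For the difference between responses 7 were higher and 6 lower (20.0% and 17.1%, -0.01), against 13 and 4 with library size alone. With TMM the medians of all genes stood between -0.01 and 0.03 in the 5 comparisons. With library size alone they stood at -0.07 and 0.03 in the parental and resistant responses, 0.24 and 0.34 between the lines, and 0.10 for the difference. The share of all genes called by that scaling is not given, so list counts with library size alone, here and below, have no background beside them. Less the all-gene median, the list medians were nearly the same by either scaling.

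STAT3, the main factor downstream of IL-6 family cytokines, was nearly level, with mean CPM of 373, 360, 378 and 378 in the order parental vehicle, parental oxamate, resistant vehicle and resistant oxamate. Its only call was in resistant against parental cells under oxamate (log2 fold change 0.07, standard error 0.022, edgeR adjusted p = 0.0082). STAT5A, which with STAT5B carries growth hormone and interleukin signals, had 33.9, 31.7, 41.0 and 38.1 CPM and was higher in resistant cells under vehicle (0.28, edgeR adjusted p = 1.74e-06) and under oxamate (0.27, edgeR adjusted p = 3.28e-06). STAT5B had 67.9, 68.7, 62.2 and 59.5 CPM and was lower in resistant cells by -0.12 and -0.21, signs that library size alone turned.

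BCL6, a transcriptional repressor and STAT target, moved as the kinases did, with 38.6, 52.7, 24.4 and 21.3 CPM in the same order. It was higher after oxamate in parental cells (0.45, standard error 0.03, edgeR adjusted p = 5.88e-09), lower in resistant cells (-0.19, edgeR adjusted p = 0.00126), and lower between the lines (-0.66 under vehicle and -1.30 under oxamate), with a difference between responses of -0.64. SOCS6, an inhibitor of cytokine and growth factor signals, ran the other way in parental cells at -0.61 (edgeR adjusted p = 8.28e-11) and had a difference between responses of 0.50. STAT6, which answers IL-4, was 0.58 higher in resistant cells under vehicle. After oxamate resistant cells had a log2 fold change of 0.25 in PIAS2 and of -0.22 in SOCS7, and parental cells 0.39 and -0.31. SOCS1, a STAT-induced inhibitor of JAK kinases named here after its values were seen, had 20.3, 26.8, 11.8 and 12.2 CPM. It was higher after oxamate in parental cells (0.40, edgeR adjusted p = 8.32e-06), with 0.04 in resistant cells (edgeR adjusted p = 0.644) and a difference between responses of -0.35 (edgeR adjusted p = 0.00208). SOCS2 and SOCS3, also named after their values were seen, did not follow the kinases. SOCS2 had 1.46, 0.646, 1.94 and 2.235 CPM and was lower after oxamate in parental cells (-1.16). Its difference between responses was 1.36 (edgeR adjusted p = 1.59e-05). SOCS3 was higher in resistant cells under vehicle (0.26) and under oxamate (0.25).

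MAX had 34.3, 36.9, 36.1 and 33.2 CPM in the 4 groups, a log2 fold change with oxamate of 0.11 in parental cells (standard error 0.038, edgeR adjusted p = 0.0256) and of -0.12 in resistant cells (standard error 0.04, edgeR adjusted p = 0.0453). The paralog MYCL was low at 4.64, 2.93, 4.06 and 3.85 CPM and fell by 0.66 in parental cells (edgeR adjusted p = 1.18e-06), and MYCN had at most 2 counts in any library. Of the MYC-MAX network, which also holds the MXD antagonists and chromatin cofactors, 19 of 20 genes were tested. After oxamate 7 were higher and 8 lower in parental cells (36.8% and 42.1%, median log2 fold change -0.02) and 2 higher and 5 lower in resistant cells (10.5% and 26.3%, -0.0031), against 5 and 9 and 3 and 3 with library size alone. Between the lines 4 were higher and 9 lower under vehicle (21.1% and 47.4% beside 38.4% and 37.3% of all genes, -0.12). Under oxamate 7 were higher and 10 lower (36.8% and 52.6% beside 40.6% and 39.7%, -0.12). Library size alone gave 8 and 5 and 11 and 5. The difference between responses was higher for 9 and lower for 6 (47.4% and 31.6% beside 22.7% and 21.4%, 0.13), and for 11 and 3 with library size alone.

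MXD1, a MAX partner that represses MYC target genes, had 21.6, 32.0, 11.3 and 9.02 CPM and was lower in resistant cells under oxamate (-1.83, edgeR adjusted p = 5.79e-13). MXI1, of the same family, was 0.60 higher after oxamate in parental cells (edgeR adjusted p = 3.94e-10), with 0.06 in resistant cells and a difference of -0.54. WDR5, a cofactor that anchors MYC on chromatin, had 73.1, 57.5, 84.5 and 84.3 CPM and a difference between responses of 0.34. The large MAX partner MGA was higher (0.52) and RUVBL2, an ATPase of chromatin complexes, lower (-0.47) in resistant cells under vehicle. RUVBL1 fell by 0.36 in parental cells, and in resistant cells MXD4 was higher (0.18) and MLX lower (-0.16) after oxamate.

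The list of MYC protein turnover, ligases, deubiquitinases, kinases and phosphatases that set how long MYC protein lasts, had all 24 genes tested. After oxamate 5 were higher and 11 lower in parental cells (20.8% and 45.8%, median log2 fold change -0.08), and 0 higher and 3 lower in resistant cells (12.5% lower, the share of all genes, -0.02), against 4 and 15 and 2 and 2 with library size alone. Resistant against parental cells gave 6 higher and 12 lower under vehicle (-0.08) and 10 and 10 under oxamate (-0.05), which became 14 and 8 and 17 and 6 with library size alone, and the difference between responses 8 and 5 (0.03), or 11 and 1. TRIM32, a ubiquitin ligase, had 15.7, 9.94, 23.6 and 24.7 CPM, with a difference between responses of 0.73. PPP2R1A, the scaffold of the phosphatase PP2A, was lower in resistant cells under vehicle (-0.60) and under oxamate (-0.82). AURKA, a mitotic kinase that can shield MYC proteins from degradation, fell by 0.48 in parental cells, where the deubiquitinase gene USP28 was 0.20 higher. AXIN1 was lower in resistant cells after oxamate (-0.18).

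Of 52 MYC-activated genes, all tested, most that were called were lower after oxamate in both lines. With TMM most were also called lower in the resistant line, a majority that library size alone, which shifts all genes, did not keep. Less the median of all genes, the list median in resistant against parental cells was -0.279 under vehicle and -0.229 under oxamate by either scaling. In parental cells 5 were higher and 33 lower after oxamate (63.5% lower beside 30.4% of all genes, median log2 fold change -0.18), and in resistant cells 2 were higher and 26 lower (50% lower beside 12.5%, -0.10). Under vehicle 10 were higher and 37 lower in resistant cells (19.2% and 71.2% beside 38.4% and 37.3% of all genes, -0.25). Under oxamate 16 were higher and 30 lower (30.8% and 57.7% beside 40.6% and 39.7%, -0.215). With library size alone the oxamate responses kept that majority, with 3 higher and 45 lower and 2 higher and 22 lower, but the lines gave 21 higher and 21 lower under vehicle and 30 higher and 14 lower under oxamate. The difference between responses was higher for 22 and lower for 6 (42.3% and 11.5% beside 22.7% and 21.4%, 0.09), and for 33 and 4 with library size alone.

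WDR43, a ribosome assembly factor, had 84.7, 53.7, 97.0 and 89.3 CPM and fell by 0.66 in parental cells after oxamate (edgeR adjusted p = 1.78e-11). WDR74, of the same process, fell by 0.25 in resistant cells (edgeR adjusted p = 2.99e-05). In parental cells its log2 fold change was -0.41 (edgeR adjusted p = 8.62e-09). TBRG4, a mitochondrial RNA factor, was lower in resistant cells under vehicle (-0.65). HK2, a hexokinase that other regulators also drive, had 237, 397, 158 and 141 CPM, an order of groups shared with PIM1, and a difference between responses of -0.91 (edgeR adjusted p = 5.7e-11). TFRC, the transferrin receptor, ran against the list at 49.9, 47.8, 74.0 and 99.3 CPM and was 0.43 higher in resistant cells after oxamate (edgeR adjusted p = 3.79e-07).

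MYC-repressed genes, of which 17 of 18 were tested, gave 10 higher and 5 lower in parental cells after oxamate (58.8% higher beside 28.3% of all genes, median log2 fold change 0.19) and 3 higher and 5 lower in resistant cells (17.6% and 29.4%, -0.01). Under vehicle 5 were higher and 10 lower in resistant cells (29.4% and 58.8% beside 38.4% and 37.3% of all genes, -0.17). Under oxamate 5 were higher and 9 lower (29.4% and 52.9% beside 40.6% and 39.7%, -0.22). Library size alone gave 8 higher and 7 lower in both. The difference between responses gave 4 and 9 (23.5% and 52.9% beside 22.7% and 21.4%, -0.12), or 5 and 6 with library size alone. NDRG1, a stress-responsive gene, had 223, 411, 198 and 233 CPM and was higher after oxamate in parental cells by 0.88 and in resistant cells by 0.23. GADD45B, a stress sensor gene, was lower in resistant cells under vehicle (-1.44) and under oxamate (-1.895). GAS1, a growth arrest gene, was lower in parental cells after oxamate (-0.67) and higher in resistant than in parental cells (0.45 and 0.97). CDKN1B, which encodes p27, was lower after oxamate in resistant (-0.26) and in parental cells (-0.25). CEBPA had a difference between responses of 0.59.

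PIM substrates and effectors, of which 29 of 30 were tested, gave 11 higher and 11 lower after oxamate in parental cells (37.9% each beside 28.3% and 30.4% of all genes, median log2 fold change 0.01) and 5 and 7 in resistant cells (17.2% and 24.1% beside 9.01% and 12.5%, -0.03). Library size alone gave 9 and 16 in parental cells. Between the lines 10 were higher and 14 lower under vehicle (34.5% and 48.3% beside 38.4% and 37.3% of all genes, -0.03). Under oxamate 11 were higher and 15 lower (37.9% and 51.7% beside 40.6% and 39.7%, -0.08). Library size alone gave 16 and 10 and 16 and 11 for these. The difference between responses gave 8 and 11 (27.6% and 37.9% beside 22.7% and 21.4%, -0.01), a majority that library size alone turned to 12 and 5. CXCR4, a chemokine receptor whose surface display PIM1 can promote, had 8.88, 15.6, 6.50 and 3.28 CPM in the 4 groups. It was higher in parental cells after oxamate (0.81, edgeR adjusted p = 4.01e-09) and lower in resistant cells (-0.98, edgeR adjusted p = 1.04e-07), with a difference of -1.79 (edgeR adjusted p = 7.5e-10). The apoptosis kinase gene MAP3K5 was higher (2.74) and the nuclease gene SND1 lower (-0.48) in resistant cells under vehicle, and RUNX1 was 1.47 higher under oxamate. IRS1, an adaptor of insulin signals, fell by 0.63 in parental cells. The pyruvate kinase gene PKM was 0.18 higher in resistant and 0.26 higher in parental cells after oxamate. Transcript levels of substrates say nothing of their phosphorylation, which was not measured in these libraries.

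HSP90 and its cochaperones, which fold many kinases, PIM kinases among them, were mostly lower in the resistant line. Of 11 genes, all tested, 1 was higher and 10 lower under vehicle (90.9% lower beside 37.3% of all genes, median log2 fold change -0.49) and 1 higher and 9 lower under oxamate (81.8% beside 39.7%, -0.56), and library size alone gave 2 and 8 and 2 and 7. HSP90AA1 had 4328, 4218, 2341 and 2394 CPM and was lower under vehicle (-0.89, edgeR adjusted p = 7.49e-14), and HSP90AB1 was lower under oxamate (-0.71, edgeR adjusted p = 5.97e-14). After oxamate 3 were higher and 3 lower in parental cells (27.3% each, near the share of all genes, -0.02), which library size alone made 1 and 6, and 0 higher and 5 lower in resistant cells (45.5% lower, -0.06), AHSA1 among the latter at -0.14. The difference between responses gave 1 and 2 (9.09% and 18.2% beside 22.7% and 21.4%, -0.05), or 4 and 2 with library size alone. FKBP5, a cochaperone of steroid receptors, was the gene that was higher in the resistant line, by 0.08 and 0.23.

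Short-lived transcripts were followed because PIM1 and MYC mRNAs are of this kind, and 38 of 39 were tested. In parental cells 16 were higher and 13 lower after oxamate (42.1% and 34.2%, median log2 fold change 0.04), a majority that library size alone turned to 13 and 16 (-0.03). In resistant cells 0 were higher and 17 lower (44.7% lower beside 12.5% of all genes, -0.105), and library size alone gave 0 and 15. Under vehicle 14 were higher and 20 lower in resistant cells (36.8% and 52.6% beside 38.4% and 37.3% of all genes, -0.155). Under oxamate 15 were higher and 22 lower (39.5% and 57.9% beside 40.6% and 39.7%, -0.19). Library size alone turned these into 18 and 16 and 19 and 16. The difference between responses gave 12 and 21 (31.6% and 55.3% beside 22.7% and 21.4%, -0.16), or 12 and 16 with library size alone.

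ZFP36, whose protein destabilises AU-rich mRNAs, had 85.3, 126, 63.9 and 52.7 CPM, the order of groups seen for the kinases, and a difference between responses of -0.83 (edgeR adjusted p = 8.77e-09). Its relative ZFP36L1 was lower in resistant cells after oxamate (-0.34) and between the lines under vehicle (-0.80). FOSL1, of the AP-1 family, was lower in resistant cells under oxamate (-1.10), while DUSP6, a feedback phosphatase of ERK, was 3.77 and 4.80 higher in the resistant line. ID1, an inhibitor of basic helix-loop-helix factors, fell by 0.48 in parental cells and had a difference of 0.51.

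**Figure D5:**
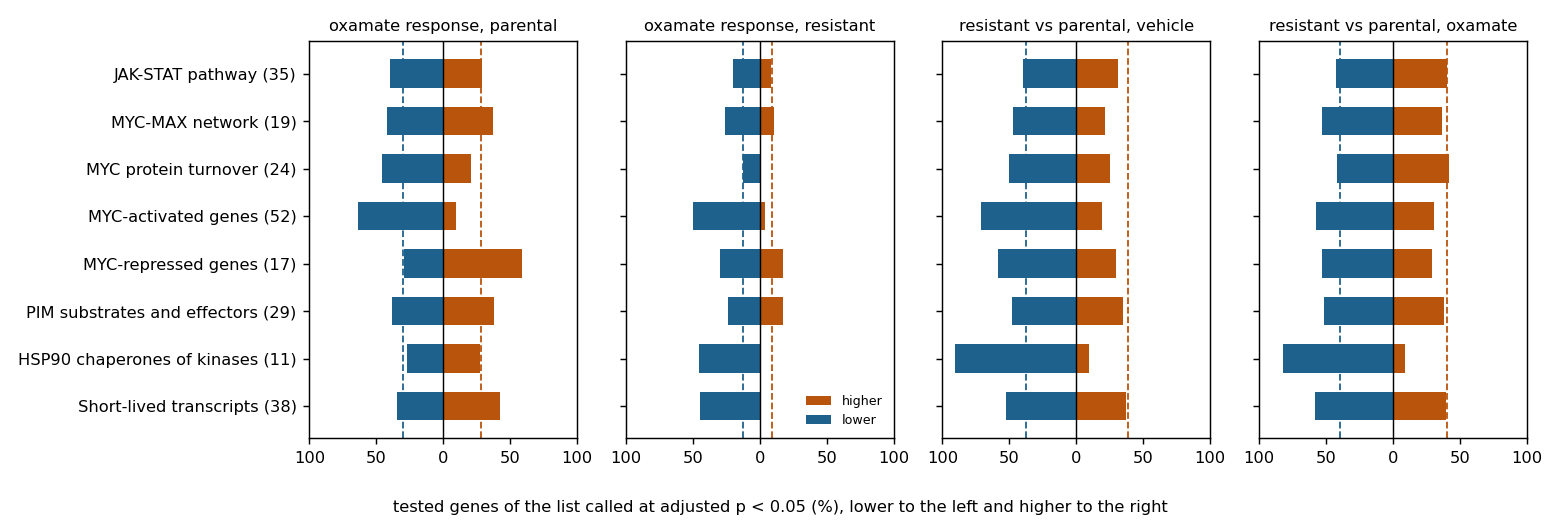
Percent of the tested genes of each list called higher (right, orange) or lower (left, blue) at an adjusted p under 0.05 in 4 comparisons after TMM scaling, with dashed lines at the percent of all tested genes called in that direction and the number of tested genes in brackets. Lower calls exceed the dashed line in all 4 comparisons for the JAK-STAT, MYC-MAX, MYC-activated, PIM substrate and short-lived lists. They exceed it in 3 of the 4 for the MYC protein turnover, MYC-repressed and HSP90 chaperone lists. Higher calls exceed their line in the parental response for the MYC-MAX, MYC-repressed, PIM substrate and short-lived lists, and barely for JAK-STAT. In the resistant response they do so for the MYC-MAX, MYC-repressed and PIM substrate lists, and between the lines only for MYC protein turnover under oxamate. The counts with library size alone differ between the lines as given in the text.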

How the data were processed

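RNA-seq libraries of 4 groups of 3 MIAPaCa2 samples were analysed. Per the study's methods and the submitters' processing notes, mRNA was selected with oligo(dT) beads, reads were mapped with Bowtie2 2.1.0 and RSEM 1.2.15 estimated counts on hg38; STAR and featureCounts are also described. The authors deposited expected counts per gene symbol, without normalization, and 11.6% of values were not whole, though all 48 values of PIM1, PIM2, PIM3 and MYC were. RSEM shares out reads that match several transcripts.

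The expected counts were rounded and fitted in R 4.3.3 with edgeR 4.0.16: filterByExpr, TMM and quasi-likelihood tests on the means of all 4 groups, with calls under 0.05 after Benjamini-Hochberg adjustment and, as the threshold of the study, a change over 1.5-fold at an unadjusted p under 0.05. CPM are scaled by TMM, and likeness used log2(CPM + 0.5), without correlations, since the libraries fall into groups. The depth of 46698729 to 114222169 counts put a floor of 3 counts at 0.0283 to 0.0581 CPM. Every pair of replicates differed beyond sampling noise. The edgeR script was tested on simulated data.

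The members and the 9 gene lists were chosen with earlier results of these data known. Named were the 4 genes, per list and comparison the called gene with the smallest p in each direction, STAT3, STAT5A, STAT5B, MAX, MYCN, MYCL, LDHA, MALAT1, NEAT1 and the 5 genes most like each of the 4. SOCS1, SOCS2 and SOCS3 lie outside this rule. Positions came from GENCODE release 29 and promoters from RefSeq. Alternatives were RLE factors, library size alone, no filter, DESeq2 1.42.0, limma-voom (limma 3.58.1), a replicate block, only the groups compared, no fold threshold, and each library left out. Accessibility and metabolite data were not used here.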

Additional observations from a re-analysis of the deposited data

Results flagged for a closer look

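Several genes were singled out because their oxamate response differed between the lines in the test of the difference itself, given as the response in resistant minus that in parental cells on the log2 scale. Among the 4 genes the difference was -0.87 for PIM1, which was chosen by its low level in the resistant line, -0.50 for PIM2, -0.66 for PIM3 and -0.0949 for MYC. The 3 kinases were higher in parental and lower in resistant cells, while MYC was lower in both, and the MYC difference was lost under 3 alternatives.

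In the lists, lower responses in resistant cells were found for CXCR4 (-1.79), HK2 (-0.91), ZFP36 (-0.83), NDRG1 (-0.65), BCL6 (-0.64), MXI1 (-0.54), PPP2R1A (-0.22) and HSP90AB1 (-0.21). Higher responses were found for TRIM32 (0.73), CEBPA (0.59), WDR43 (0.54), IRS1 (0.51), ID1 (0.51), SOCS6 (0.50), WDR5 (0.34) and FKBP5 (0.16). With 3 libraries a group, single libraries were not tested for standing apart.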

How the results depend on the processing

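Over the alternatives run, 265 log2 fold changes of the 4 genes kept their direction and call or, where untested, moved by less than the replicate spread, 7 lost the call, 5 moved beyond the replicate spread and 3 changed sign. Library size alone in place of TMM gave, for resistant against parental cells under vehicle, -1.23 (PIM1), -0.48 (PIM2), -0.58 (PIM3) and 0.0736 (MYC, sign changed). Under oxamate it gave -1.99 (PIM1) and 0.0843 (MYC, sign changed). PIM2 went there from -1.196 to -0.871 and PIM3 from -1.455 to -1.13, with the calls kept. Library size alone also gave a difference between responses of 0.0108 for MYC (sign changed) and a response of -0.0561 for PIM2 in resistant cells, no longer called. Its own construction moves all genes by the shift of their median. The fit on only the groups compared gave -2.29 for PIM1 under oxamate, and no filter gave -0.0955 for the MYC difference, no longer called; the cause was not tested. With single libraries left out, PIM2 in resistant cells ran from -0.102 to -0.0704, lost without the second vehicle or any oxamate library of that line, and the MYC difference from -0.107 to -0.0834, lost without the second resistant vehicle library.

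At the threshold of the study 1440 genes were called in parental and 365 in resistant cells after oxamate, 3407 and 5007 between the lines under vehicle and oxamate, and 1237 for the difference. With no fold threshold at an adjusted p under 0.05 these became 8563, 3139, 11038, 11708 and 6438. The study, with its own DESeq2 processing, reported fewer genes at its threshold for both oxamate responses and both line contrasts. In the fits made here, DESeq2 gave 231 in resistant cells at that threshold. Leaving out single libraries there gave 282 to 570, the highest without the third vehicle library. The split turned from 829 higher and 611 lower to 659 and 848 with library size alone in parental cells, and went from 2511 and 896 to 3823 and 378 under vehicle, from 3340 and 1667 to 5223 and 555 under oxamate and from 808 and 429 to 1196 and 254 for the difference. Replicate numbers did not pair the samples throughout, with correlations of same-numbered deviations from -0.0998 to 0.371 and not every library nearest to its own number. Among oxamate-treated parental cells and both resistant groups, replicates 2 and 3 were nearest to their own number and replicate 1 was not. The cause was not tested. A replicate block gave 398 genes in resistant cells and -0.44 for PIM1 there, and changed no call of the 4 genes.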
